A study of Caenorhabditis elegans with 9 samples.

Results

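FOS-1 NanoDam peaks of dopaminergic neurons are described here: the stretches of DNA that the authors called as more methylated in worms with GFP-tagged FOS-1 than in worms without a tagged factor. They were taken from 3 peak lists, 1 for each FOS-1 library, and every peak on the 6 nuclear chromosomes was kept. This gave 2944 FOS-1 peaks of 6043 nuclear peaks in the series; the other 3099 belong to 3 EGL-43 lists, which serve as background.

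The FOS-1 libraries came from Caenorhabditis elegans of strain TV27857 with the genotype bmd261; fos-1(wy1539), in which the endogenous FOS-1 protein carries GFP. The EGL-43 libraries came from strain TV27655, bmd261; egl-43(wy1449), with GFP on endogenous EGL-43. The control libraries came from strain TV27654, which carries bmd261 alone. All 3 strains thus carry bmd261, the single-copy insertion in which a promoter active in dopaminergic neurons drives a nanobody against GFP joined to the methylase Dam. Each group had 3 libraries from L3 larvae, and each strain stands for 1 genotype with no independent second line in the labels. Larvae were harvested in batches of about 5000 after 24 h on food at 25 °C, and whole-worm DNA was extracted. The cells reported on are therefore set by the promoter; peak lists hold no expression values, so the label could not be set against marker genes.

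FOS-1 is the worm member of the Fos family of basic leucine zipper transcription factors, which bind DNA as dimers at AP-1 elements. It is best known in the worm for the invasion of the anchor cell through basement membrane, where the zinc finger factor EGL-43 also acts. Dam methylates adenine within GATC, and in NanoDam the nanobody carries Dam to the GFP-tagged protein, so that GATC sites around the places where the protein sits become methylated. A control with the same fusion but no tagged protein records where Dam reaches by itself, in open chromatin for example. A called peak is thus an excess over this control along GATC fragments, whose length limits how finely a binding site can be placed.

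Each FOS-1 list compares 1 tagged library with the control library of the same number, and the EGL-43 list of that number uses the same control. Lists of the same number are therefore not independent. Read depth is unknown, because read counts and signal tracks were not analysed here. The submitters' processing notes name the genome build ce10, and the annotation at hand is of a different build (WBcel235). Positions are given as deposited and were not placed in genes, and no sequence is shown.

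FOS-1 replicate 1 held 1067 nuclear peaks, replicate 2 held 1045 and replicate 3 held 832. The peaks covered 2150, 1562 and 2271 kb in replicates 1, 2 and 3. Replicate 3 thus had the fewest peaks and the largest covered length, and replicate 2 the smallest covered length. As a share of the chromosomes these lengths were 2.15%, 1.56% and 2.27%, with each chromosome taken to end at the last base of any peak. No mitochondrial peak was present in a FOS-1 list, whereas EGL-43 replicates 2 and 3 had 1 each.

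Width set the FOS-1 replicates apart. The median FOS-1 peak was 1515 bp wide in replicate 1, 1320 bp in replicate 2 and 2070 bp in replicate 3. The middle 50% of peaks ran from 916 to 2297 bp in replicate 1, from 842 to 1941 bp in replicate 2 and from 1443 to 2970 bp in replicate 3. Replicate 3 was shifted over most of its range: its shortest peak was 420 bp, against 69 and 61 bp in replicates 1 and 2, and 7.81% of its peaks were under 1 kb, against 28.5% and 33.2%. The median width averaged 1635 ± 389 bp for FOS-1 and 1279 ± 96 bp for EGL-43 (SD, n = 3 lists each). The difference of 356 bp was smaller than the SD among FOS-1 lists (two-sided exact permutation test over lists, p = 0.2, 0.54 after Benjamini-Hochberg adjustment over 9 comparisons). The smallest p that 3 lists against 3 can give is 0.1, so none of these 9 comparisons could pass 0.05. Without replicate 3 of both factors the difference in median width was 92 bp, and without replicate 2 of both it was 563 bp. EGL-43 was the wider in replicate 2, where FOS-1 minus EGL-43 was -57 bp.

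**Figure D1:**
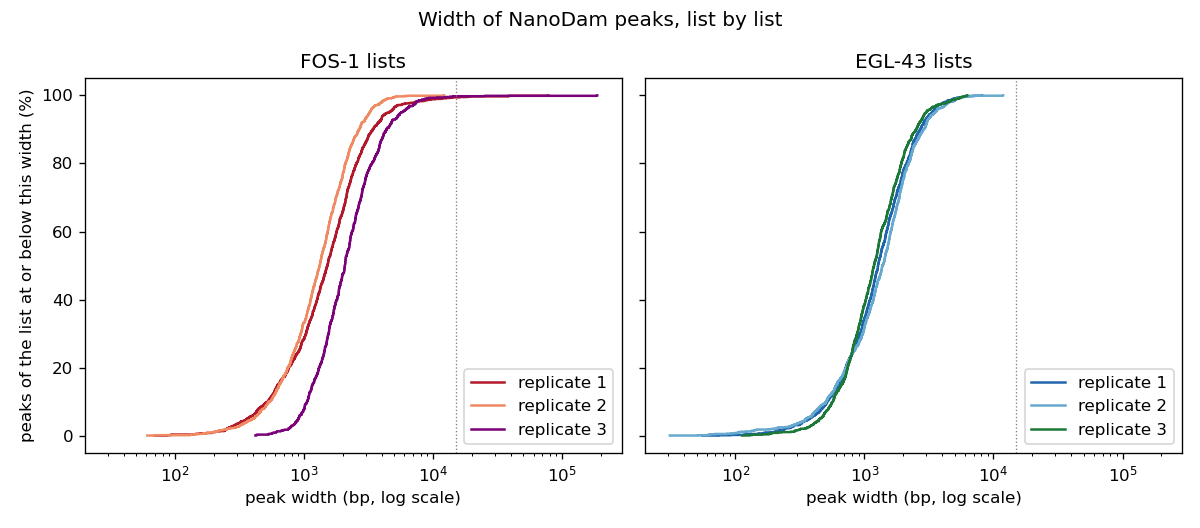
Cumulative share of nuclear peaks (%) against peak width (bp, log scale) for each of the 3 FOS-1 lists (left) and the 3 EGL-43 lists (right); the dotted line marks 15 kb. The FOS-1 replicate 3 curve lies to the right of the other FOS-1 curves over most of its course, with a median of 2070 bp, and FOS-1 replicates 1 and 3 have tails past 15 kb that end at 78.1 and 187 kb.

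The upper tail was the other difference. FOS-1 replicate 1 had 6 peaks over 15 kb, replicate 3 had 2 and replicate 2 had 0, and the EGL-43 lists also had 0. The 10 longest peaks made up 12.2% of the covered length in replicate 1 and 13.1% in replicate 3, but 3.75% in replicate 2. In the EGL-43 lists this share ranged from 3.66% to 4.44%, so FOS-1 replicate 2 lay within the EGL-43 range and the other FOS-1 lists above it. The longest peaks of replicate 1 were 78.1, 38.7 and 38.6 kb long and all lay on chromosome III. The longest of replicate 2 were 12.1, 6.33 and 5.93 kb long and all lay on chromosome V. Those of replicate 3 were 187, 25.1 and 14.3 kb long, on chromosomes III, II and V.

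The long peaks of replicates 1 and 3 on chromosome III were the same stretch. FOS-1 replicate 3 had a single peak from 3014747 to 3201868, at the 96.0th score percentile of its list and with a false discovery rate (FDR) listed as 0. Replicate 1 had 6 peaks there, which covered 97.9% of that span. Its 3 longest, from 3016942 to 3055505, from 3064200 to 3142321 and from 3142451 to 3181138, stood at percentiles 99.8, 99.9 and 99.7. Replicate 2 had 5 peaks there, which covered 6.15% of the span, and the highest stood at percentile 75.2. The EGL-43 lists had 0 peaks in the span, so 2 FOS-1 libraries marked it almost end to end, the remaining one in places, and the EGL-43 libraries not at all. In the authors' combined FOS-1 list this stretch is the longest region, at 192 kb.

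The next longest combined regions were 25.1 kb on chromosome II, from 13788198 to 13813301, and 19.3 kb on chromosome V, from 14801826 to 14821088. The first was a single peak of FOS-1 replicate 3 at percentile 94.7, of which a replicate 1 peak covered 7.97%. The second was a single peak of replicate 1 at percentile 99.4, with 0 peaks in the other FOS-1 lists. Neither had an EGL-43 peak. Of the 3 longest combined regions, the chromosome III stretch was thus the one found long in more than 1 library.

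Spacing between neighbouring peaks of a list was next examined. The median gap was 55.1 kb in FOS-1 replicate 1, 62.0 kb in replicate 2 and 72.9 kb in replicate 3, in the reverse order of their peak numbers. It averaged 63.4 ± 9.0 kb for FOS-1 and 56.7 ± 3.0 kb for EGL-43 (SD, n = 3 each), a difference within the FOS-1 spread (two-sided exact permutation test, p = 0.3, adjusted p = 0.54). Leaving out replicate 3 of both factors brought the difference of 6.72 kb down to 0.553 kb, and leaving out replicate 1 of both raised it to 10.6 kb. The longest stretch without a peak measured 621, 930 and 1267 kb in FOS-1 replicates 1, 2 and 3. The closest neighbours lay 9, 18 and 20 bp apart, and no peaks of 1 list touched.

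Peaks with another of the same list within 10 kb made up 32.1% of FOS-1 replicate 1 (343 peaks), 26.2% of replicate 2 (274) and 21.4% of replicate 3 (178). The mean share was 26.6% ± 5.4 for FOS-1 and 34.1% ± 7.4 for EGL-43 (SD, n = 3 each), and FOS-1 minus EGL-43 was negative for each of the 3 numbers, with -2.15, -0.447 and -20.02 percentage points. The difference of -7.54 points was of the order of the spread (two-sided exact permutation test, p = 0.2, adjusted p = 0.54). It was -1.30 points without replicate 3 of both factors. The coefficient of variation of the gaps, which is not tied to peak number, was 1.11, 1.11 and 1.15 in FOS-1 replicates 1 to 3, against 1.24, 1.09 and 1.66 in the EGL-43 lists (p = 0.4, adjusted p = 0.562, two-sided exact permutation test). FOS-1 lists were alike in this measure, whereas EGL-43 replicate 3 stood apart with gaps of up to 3326 kb; without number 3 the difference of -0.203 was -0.0505.

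Clusters were taken as runs of 3 or more peaks of a list with gaps of at most 10 kb. FOS-1 replicate 1 had 25 such runs with 115 peaks, replicate 2 had 13 with 52 peaks and replicate 3 had 15 with 50 peaks. These were 10.8%, 4.98% and 6.01% of the peaks, against 7.22% to 15.9% in the EGL-43 lists. The EGL-43 lists had 41, 24 and 42 runs. FOS-1 runs were fewer for each number, but the longest were larger in replicates 1 and 2, with 22, 9 and 6 peaks in FOS-1 replicates 1, 2 and 3, against 5, 5 and 6 peaks in EGL-43 replicates 1, 2 and 3. In each FOS-1 list the largest run lay on chromosome V, each time at a different place. The runs below were singled out after their values were seen.

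The run of 22 peaks in FOS-1 replicate 1 spanned chromosome V from 4528382 to 4675048, and peaks covered 63.6% of it. Its peaks had a median score percentile of 82.4. FOS-1 replicates 2 and 3 covered 1.18% and 3.13% of this span, and the EGL-43 lists between 0.910% and 1.67%. It filled both windows of 100 kb with the most peaks in that list, 11 each, from 4500001 to 4600000 and from 4600001 to 4700000. The second run of replicate 1, with 13 peaks, covered 84.6% of chromosome V from 14754370 to 14870155, at a median percentile of 82.1. The other FOS-1 lists covered 2.36% and 2.10% of it, and the EGL-43 lists at most 2.32%. Both runs were therefore dense and high in rank in 1 library, while each of the other 5 lists had 1 or 2 peaks there. Coverage of the runs in those 5 lists was 0.664% to 3.13%, of the order of their 1.28% to 2.27% over all chromosomes.

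In FOS-1 replicate 2 the largest run had 9 peaks on chromosome V from 3337595 to 3390917, covering 45.7% of the span at a median percentile of 74.2. It lies in the fullest window of that list, from 3300001 to 3400000, with 11 peaks. Here the other FOS-1 lists covered a larger share than in the runs of replicate 1. Replicate 1 covered 15.3% of the run with 3 peaks, the highest at percentile 99.2, and replicate 3 covered 5.28% with 1 peak at percentile 99.6. Among EGL-43 lists, replicate 2 had 1 peak there at percentile 37.5 and the others had 0. The next run of FOS-1 replicate 2, with 7 peaks on chromosome II from 7622367 to 7652279, was of another kind: it had a median percentile of 36.7, and the EGL-43 lists covered 30.0%, 32.9% and 20.7% of it, against 44.3% in FOS-1 replicate 2, 13.3% in replicate 1 and 0% in replicate 3.

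The 2 largest runs of FOS-1 replicate 3 ranked low in its scores. The 6 peaks on chromosome V from 17115415 to 17144033 had a median percentile of 2.22 and a maximum of 59.7, and the 5 peaks on chromosome IV from 892180 to 909800 a median of 1.20 and a maximum of 1.44. The fullest window of this list, on chromosome V from 17100001 to 17200000 with 8 peaks, holds the first of them. FOS-1 replicates 1 and 2 had 0 peaks in either run. EGL-43 replicate 3, made against the same control library, had 3 peaks in the first run, the highest at percentile 100 of that list, and 5 in the second, the highest at percentile 33.8. EGL-43 replicates 1 and 2 had 0. The runs thus ranked higher in EGL-43 replicate 3 than in FOS-1 replicate 3. Both were found in the 2 lists that share control library 3, and in none of the 4 made against other controls; the part of the control in them was not tested.

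**Figure D2:**
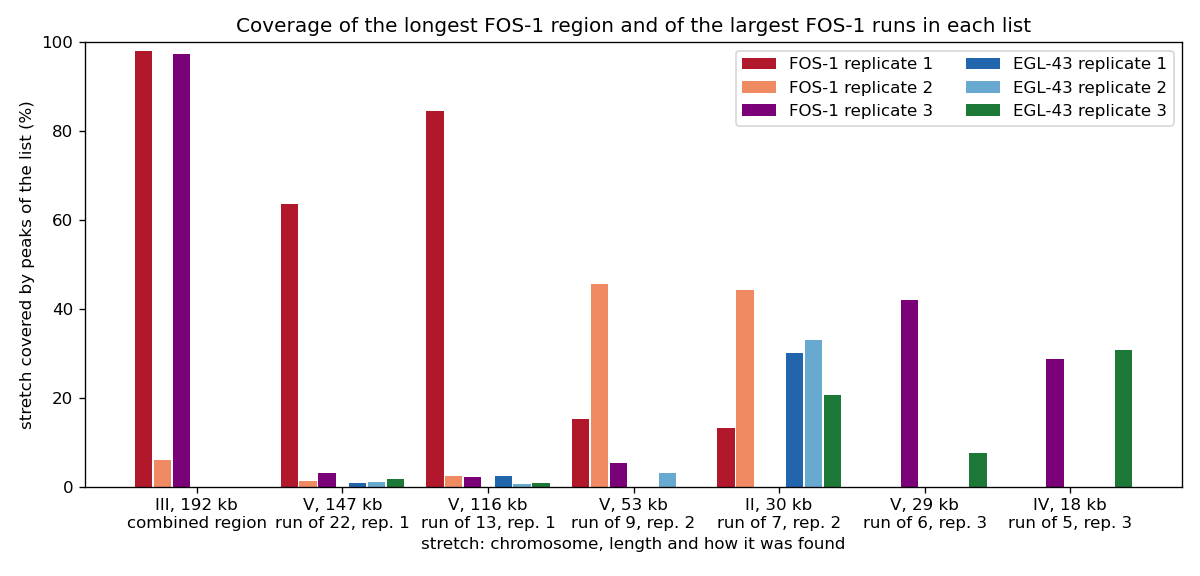
Share of each stretch (%) covered by peaks of each list, FOS-1 lists left and EGL-43 lists right within each group of bars; stretches are the longest combined FOS-1 region and the 2 largest runs of each FOS-1 list, named by chromosome, length and the list whose run it is. The 192 kb stretch of chromosome III is covered to 98.0% and 97.3% in FOS-1 replicates 1 and 3. The 2 runs of FOS-1 replicate 1 are covered to at most 3.13% in any other list. The chromosome IV run of FOS-1 replicate 3 is covered to 28.7% in that list and to 30.7% in EGL-43 replicate 3.

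Every FOS-1 list had peaks on all 6 nuclear chromosomes. In replicate 1 the density was 10.8 peaks per Mb on chromosome I, 10.7 on II, 10.7 on III, 9.40 on IV, 11.1 on V and 11.2 on X. In replicate 2 it was 10.7 on I, 9.63 on II, 11.6 on III, 9.57 on IV, 9.43 on V and 12.02 on X. In replicate 3 it was 9.09 on I, 8.13 on II, 8.71 on III, 7.96 on IV, 7.85 on V and 8.35 on X. The chromosomes were close to even in each list, and the densest differed: X in replicates 1 and 2, and I in replicate 3. Peak density on X relative to the autosomes was 1.06, 1.19 and 1.01 in FOS-1 replicates 1 to 3, a mean of 1.09 ± 0.09, against 1.11 ± 0.03 for EGL-43 (SD, n = 3 each). The difference of -0.0267 was within the spread of the FOS-1 lists (two-sided exact permutation test, p = 0.6, adjusted p = 0.6).

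Coverage by chromosome followed the long stretches instead. Peaks covered 3.10% of chromosome III in FOS-1 replicate 1 and 3.56% in replicate 3, the highest of any chromosome in each list, against 1.73% in replicate 2. In replicate 1 chromosome V came next with 2.55%. Peak width differed little between chromosomes, with medians from 1264 to 1582 bp in replicate 1, from 1230 to 1447 bp in replicate 2 and from 1874 to 2262 bp in replicate 3.

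Worm autosomes have gene-dense, less recombining centres and arms that are richer in repeats, so position along the chromosome was also set out. Chromosomes were cut into 3 parts of equal length. The middle part held 33.5% of peaks in FOS-1 replicate 1 (357 peaks), 41.1% in replicate 2 (429) and 42.3% in replicate 3 (352), where an even spread would give 33.3%. Replicate 1 was close to even in sum, and replicates 2 and 3 were raised in the centre. The mean of 38.9% ± 4.8 for FOS-1 did not differ from 41.2% ± 3.5 for EGL-43 beyond the spread between lists (SD, n = 3 each; two-sided exact permutation test, p = 0.5, adjusted p = 0.562). Without replicate 1 of both factors the difference changed sign, from -2.26 to 1.31 percentage points. The even share of replicate 1 was an average over unlike chromosomes: the middle part held 27.6% of its peaks on V and 28.3% on X, but 36.4% on I, 34.5% on III and 37.8% on IV. Of its 232 peaks on V, the runs of 22 and 13 peaks lie outside the middle part and lower that share. On chromosome II the middle part held 39.9%, 53.7% and 46.0% in replicates 1, 2 and 3.

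**Figure D3:**
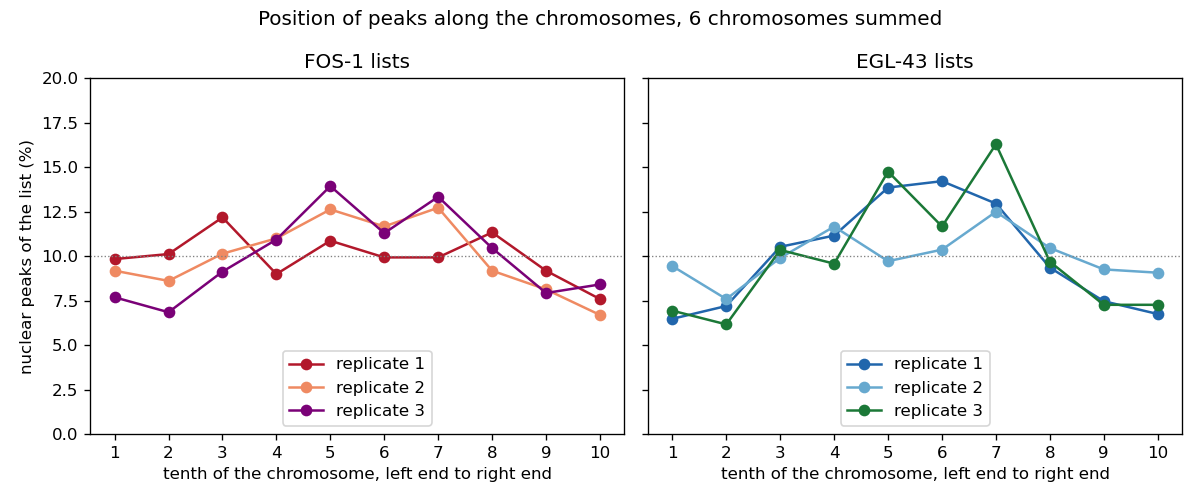
Share of nuclear peaks (%) in each of 10 equal parts of the chromosome from left to right end, summed over the 6 chromosomes, for the FOS-1 lists (left) and the EGL-43 lists (right); the dotted line is the 10% of an even spread. FOS-1 replicates 2 and 3 are highest in the middle parts, at 12.7% and 13.9%. Replicate 1 is highest in part 3 from the left, at 12.2% (130 peaks), which holds its run of 22 peaks on chromosome V.

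On a scale of 1 Mb, the 97 whole bins held from 3 to 31 peaks in FOS-1 replicate 1 (median 10), from 3 to 22 in replicate 2 (median 9) and from 0 to 18 in replicate 3 (median 8). The variance over the mean of these counts was 1.75, 1.67 and 1.71, against 2.52, 1.32 and 3.60 in EGL-43 replicates 1 to 3. These ratios were close among FOS-1 lists and varied among EGL-43 lists. The fullest bins of FOS-1 replicate 1, with 31 and 24 peaks, hold its runs of 22 and 13 peaks on chromosome V. Its ratio rests in part on these runs, which were dense in that library alone. Summed over the 3 FOS-1 lists, the fullest bin was chromosome I from 9000001 to 10000000, with 20, 22 and 12 peaks in FOS-1 replicates 1, 2 and 3, and 18, 21 and 27 peaks in the EGL-43 lists. The emptiest was chromosome IV from 16000001 to 17000000, with 3, 6 and 4 FOS-1 peaks and 4, 9 and 2 EGL-43 peaks. The fullest FOS-1 bin was also above the median of each EGL-43 list, and the emptiest below it, though by 1 peak in EGL-43 replicate 2.

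The authors' score was used by rank within a list, because its scale is not stated and its median was 3.43, 1.56 and 4.45 in FOS-1 replicates 1, 2 and 3. Its form also differed. In replicate 1, 304 peaks (28.5%) carried the same score of 3.43, against 24 peaks (2.30%) at the commonest score of replicate 2 and 6 (0.721%) in replicate 3, and 3.06%, 4.63% and 1.43% in the EGL-43 lists. These 304 tied peaks share percentile 51.2, so the middle ranks of replicate 1 have no order. In replicate 3, 11 peaks had scores below 0, from -2.45 to -0.01, with FDRs between 9.01e-07 and 0.00963; the other 5 lists had 0. A negative score stood beside a low FDR there, and how the score relates to the FDR is not given in the sources used here.

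The tied peaks of FOS-1 replicate 1 were a class of their own in several respects that the score does not fix. Their median width was 1092 bp, against 1450 bp for the 394 peaks that scored lower and 1875 bp for the 369 that scored higher. They had a neighbour within 10 kb in 18.4% of cases, against 40.1% of the lower and 34.96% of the higher peaks. An EGL-43 replicate 1 peak touched 14.1% of them, against 37.3% of the lower and 30.6% of the higher peaks, and another FOS-1 list touched 6.25%, against 25.6% and 18.7%. The tied peaks were shorter, more isolated and less often found again than the peaks on either side of them. They also lay less often on X, with 13.8% against 22.1% and 18.7%.

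Wider FOS-1 peaks tended to rank higher. Spearman's rho between score and width over the peaks of a list was 0.204 in replicate 1 (n = 1067 peaks), 0.273 in replicate 2 (n = 1045) and 0.361 in replicate 3 (n = 832), as a description, since peaks of 1 list share a library pair. With peaks split by width into 4 classes of equal size, the widest class had a median score percentile of 67.3, 65.7 and 73.0 in replicates 1 to 3, against 51.2, 36.7 and 34.1 for the narrowest. Score and FDR were related in replicates 1 and 2, with rho of -0.235 and -0.381, but not in replicate 3, with rho of -0.000161. In the EGL-43 lists rho between score and FDR lay between -0.564 and -0.333, so FOS-1 replicate 3 was the one list in which a high score did not go with a low FDR. FDRs were lowest in this list, with a median of 9.01e-07, against 0.000287 in replicate 1 and 0.000647 in replicate 2, and 89.1% of its peaks were below 0.001, against 63.5% and 55.1%.

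Rank differed little between X and autosomes, and differed by list for position and spacing. The median percentile of peaks on X minus that on autosomes was 0 in FOS-1 replicate 1, 0.813 in replicate 2 and 1.59 in replicate 3. Peaks of the middle part of chromosomes minus the outer parts gave 0, 3.06 and -9.01, and peaks with a close neighbour minus those without gave 0, 3.06 and -11.1. Replicates 2 and 3 thus pointed opposite ways for centre and neighbours, and replicate 1 gave 0 because both classes had their median within the tied scores.

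The highest-scoring peaks differed from one FOS-1 list to the next. In replicate 1 the top peak ran from 6941936 to 6946196 on chromosome V. It was 4.26 kb wide with an FDR of 0.000301, and the next were both in the chromosome III stretch given above. The first overlapped the longest peak of replicate 2, from 6933068 to 6945212, which covered 76.9% of it at percentile 64.5. Replicate 3 and the EGL-43 lists had 0 peaks inside it. In replicate 2 the first was chromosome V from 3388118 to 3390917, at the end of the run of 9, and 2 replicate 1 peaks of up to percentile 99.2 covered 79.6% of it; an EGL-43 replicate 2 peak at percentile 37.5 covered 57.96%. The second, chromosome X from 11411603 to 11412750, had no peak in any other list. The third of replicate 2, chromosome III from 9902933 to 9906092, had no other FOS-1 peak, but peaks of EGL-43 replicates 1 and 2 at percentiles 97.7 and 99.8.

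In FOS-1 replicate 3 the first was chromosome X from 4669427 to 4674193, with no peak in any other list. The second, chromosome X from 3626322 to 3638706, was 12.4 kb wide, and a replicate 1 peak with the tied score covered 42.3% of it. The third, chromosome V from 5769125 to 5770689, had no other FOS-1 peak and an EGL-43 replicate 1 peak at percentile 13.1. Of these 9 top peaks, 5 had a peak in another FOS-1 list and 4 had none. Over all peaks of replicates 1, 2 and 3, another FOS-1 list touched 17.7%, 16.8% and 13.3%. Peaks of 78.1, 38.6 and 12.4 kb are among the 5, and such widths leave more room for contact. The 2 in the chromosome III stretch were the ones with a peak in each FOS-1 list.

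Recurrence was then counted peak by peak, with an overlap of at least 1 bp as the criterion. Of the peaks of FOS-1 replicate 1, replicate 2 touched 11.4% and replicate 3 touched 7.22%. Of the peaks of replicate 2, replicate 1 touched 12.2% and replicate 3 touched 6.03%. Of the peaks of replicate 3, replicate 1 touched 8.29% and replicate 2 touched 6.73%. Averaged over the other lists of the factor, the touched share was 8.66% ± 1.00 for FOS-1 and 23.3% ± 3.1 for EGL-43 (SD, n = 3 lists each). It was lower in FOS-1 for each of the 3 numbers, with FOS-1 minus EGL-43 differences of -12.9, -11.7 and -19.3 percentage points, and the groups of lists did not overlap (exact permutation test over lists, two-sided, p = 0.1 and adjusted p = 0.54). The 3 values of a factor are built from the same 3 pairs of lists, so they depend on each other. Neither the SD nor the p-value allows for this. FOS-1 was lower although its peaks were on average wider. Without replicate 3 of both factors the difference was -8.52 percentage points, against -14.6 with all lists.

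By touched peaks, the list most alike to each FOS-1 list was the EGL-43 list with the same control. EGL-43 replicate 1 touched 28.4% of FOS-1 replicate 1, EGL-43 replicate 2 touched 27.7% of FOS-1 replicate 2 and EGL-43 replicate 3 touched 15.02% of FOS-1 replicate 3. EGL-43 lists of another number touched 11.5% and 13.7% of FOS-1 replicate 1, 13.9% and 15.3% of replicate 2, and 11.4% and 7.93% of replicate 3. In replicates 1 and 2 the EGL-43 lists of another number touched at least as large a share as each FOS-1 list did, by a narrow margin in replicate 1; in replicate 3 EGL-43 replicate 2 touched less than FOS-1 replicate 1. By base pairs this did not hold for FOS-1 replicate 3: it shared 11.4% of its covered length with FOS-1 replicate 1, where the chromosome III stretch lies, and 4.96% with EGL-43 replicate 3. Peaks with the same first and last base numbered 36 between the lists of number 1, 36 for number 2 and 2 for number 3, against 3, 1 and 1 among pairs of FOS-1 lists. How far the shared control and how far the factors account for this cannot be told apart in these lists.

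**Figure D4:**
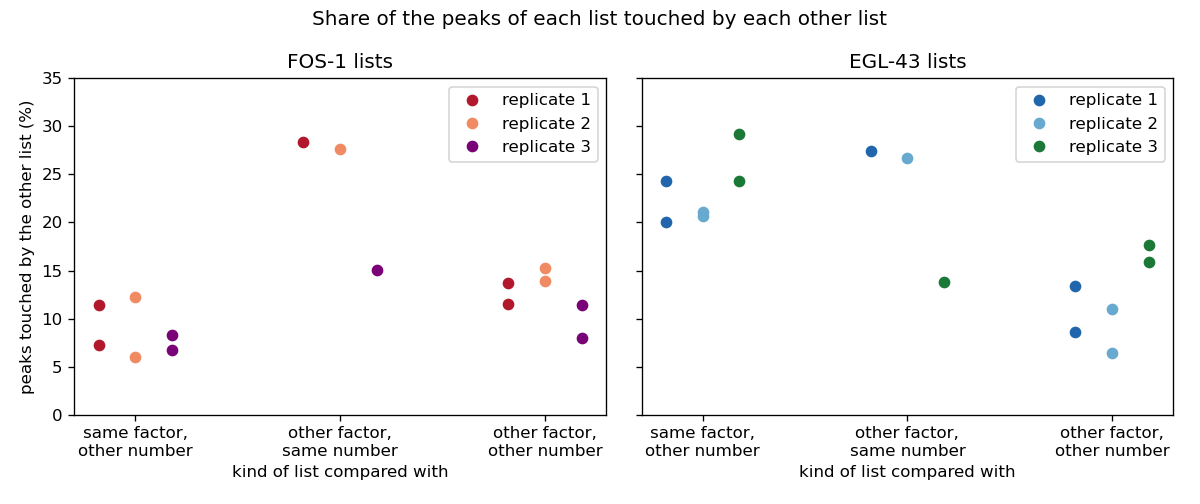
Share of the peaks of a list (%) touched by at least 1 bp of each other list, by the kind of the other list, for FOS-1 lists (left) and EGL-43 lists (right); 1 point per pair of lists. FOS-1 lists touch each other in 6.03% to 12.2% of peaks and EGL-43 lists in 20.1% to 29.2%, and the list of the other factor with the same number touches 15.02% to 28.4% of FOS-1 peaks.

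Rank and contact with EGL-43 lists went together differently in each FOS-1 list. In replicate 2 an EGL-43 list touched 28.6% of peaks up to score percentile 25 and 46.4% of those above 75. In replicate 3 the order was turned round, with 47.8% up to percentile 25 and 16.8% above 75. In replicate 1 the shares were 48.9% up to percentile 25, 21.9% between 50 and 75, where the tied peaks fall, and 38.3% above 75. Each EGL-43 list behaved like FOS-1 replicate 2: FOS-1 lists touched 29.7%, 26.9% and 24.3% of its peaks up to percentile 25, and 59.2%, 44.6% and 45.7% of those above 75. FOS-1 replicate 3 was the clearest exception, although its top-ranked peaks were also its widest (median 2825 bp above percentile 75, against 1606 bp up to 25).

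In FOS-1 replicate 3 the turn was strongest for the EGL-43 list with the same control. The 125 peaks of FOS-1 replicate 3 touched by EGL-43 replicate 3 had a median percentile of 17.9, against 56.2 for the other peaks, and 2.40% of them stood above percentile 75. In FOS-1 replicate 2 the 289 peaks touched by EGL-43 replicate 2 had a median percentile of 63.1, against 44.4 for the others. In FOS-1 replicate 1, peaks touched by EGL-43 lists with other controls also had the lower median percentile. Touched minus other peaks was -23.4 for EGL-43 replicate 2 and -30.0 for EGL-43 replicate 3. In both cases the median of the other peaks was the tied score, at percentile 51.2. The size of the difference thus depends on the ties. Of the touched peaks, 21.1% and 17.8% stood above percentile 75. The difference was 0 for EGL-43 replicate 1, with the same control, where both medians fell in the tied scores. For contact with any EGL-43 list, 26.9% of touched and 23.8% of other peaks stood above percentile 75. Of the 11 peaks of FOS-1 replicate 3 with negative scores, 6 were touched by EGL-43 replicate 3 and 7 by at least 1 of the other 5 lists. Among all peaks of FOS-1 replicate 3 these shares were 15.02% and 31.4%. Up to percentile 25, at least 1 list touched 50.2%, so contact was common among low-ranked peaks in general. For contact with another FOS-1 list, the median percentile of touched minus other peaks was -16.0 in replicate 1, 5.79 in replicate 2 and 3.61 in replicate 3, against 17.7, 8.43 and 20.8 for EGL-43 peaks touched by another EGL-43 list. By median, FOS-1 peaks found again in another FOS-1 list were not consistently among the better scored. In replicate 1 the median of the other peaks was percentile 51.2, the tied score. Above percentile 75 stood 27.5%, 27.8% and 27.9% of touched peaks in replicates 1 to 3, against 24.4%, 24.9% and 24.5% of the others.

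**Figure D5:**
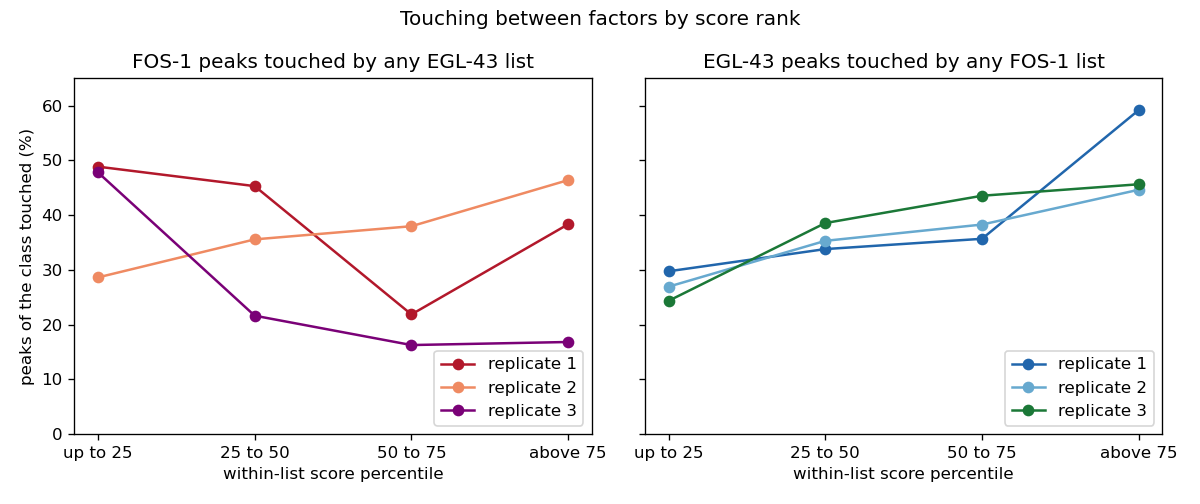
Share of peaks (%) touched by any list of the other factor, by within-list score percentile, for FOS-1 peaks (left) and EGL-43 peaks (right); 1 line per list. The line climbs in FOS-1 replicate 2 and in the EGL-43 lists, but falls from 47.8% to 16.8% in FOS-1 replicate 3 and dips to 21.9% at the tied scores of replicate 1.

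The authors' combined FOS-1 list, which joins touching peaks of the replicates, held 2686 regions with a median width of 1614 bp. Replicate 1 alone supplied 878 of them, replicate 2 alone 869 and replicate 3 alone 721. Replicates 1 and 2 shared 107 regions, replicates 1 and 3 shared 55, replicates 2 and 3 shared 42, and 14 had a peak of each. An EGL-43 peak lay in 30.2%, 32.7% and 20.8% of the regions of replicate 1, 2 or 3 alone, in 65.4%, 63.6% and 54.8% of those of replicates 1 and 2, 1 and 3, and 2 and 3, and in 11 of the 14 (78.6%). Regions with peaks of more lists were thus more often also EGL-43 regions; they were wider too, with medians of 2827 to 3346 bp against 1255 to 2066 bp for those of 1 list, and merging makes them so in part. The 3 ranked highest among the 14 were the chromosome III stretch at a mean percentile of 90.4, chromosome V from 19332833 to 19347764 at 77.1, where the replicate 2 peak meets the replicate 3 peak by 1 bp, and chromosome V from 10841424 to 10843116 at 61.7. Regions on X made up 19.0% of the list.

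Some peak edges coincided to the base between lists, counted over all other lists of both factors. Of the 2134 edges of FOS-1 replicate 1, 322 (15.1%) coincided to the base with an edge in another list, and 8 (0.375%) lay 1 to 20 bp from one. In replicate 2 the counts were 357 of 2090 (17.1%) and 6 (0.287%), and in replicate 3 129 of 1664 (7.75%) and 8 (0.481%). Exact matches far outnumbered near ones in each FOS-1 list. A peak start equalled a peak end of another list in 34, 33 and 23 cases, and such neighbours count as touching by a single base. With peaks trimmed by 2 bp at each end, the touched share was 7.41% ± 0.85 for FOS-1 and 21.8% ± 3.2 for EGL-43 (SD, n = 3 each).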

How the data were processed

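Peak lists and combined region lists were used as deposited. Per the submitters' processing notes, minimap2 and SAMtools were used with the genome build ce10; the peak caller is not given in the sources used here. Per the labels, each list sets a tagged library against the like-numbered control. The authors gave each peak a first and last base, a score of unstated scale and an FDR, below 0.01 throughout; scores were ranked within a list only. The FOS-1 combined list equalled the merge of touching FOS-1 peaks. Per the labels, DNA came from worms kept 3 generations on bacteria without Dam and was amplified in 4 and then 19 PCR cycles.

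Widths, gaps, runs, densities and overlaps were computed with Python 3.11.15, numpy 2.4.6, pandas 2.3.3 and scipy 1.17.1, and the functions were tested on simulated peaks. FOS-1 and EGL-43 lists were compared in 9 measures by exact permutation tests over lists. For the touched share, the 3 values of a factor come from the same pairs of lists, which no test here allows for. Libraries of 1 group are not stated to be separate cultures, so p-values measure the spread between these lists. Number pairs lists through the shared control, per the labels; sign-flip tests over the 3 pairs are the blocked alternative. Regions named are, per FOS-1 list, the 3 highest-scoring and 3 longest peaks and the fullest window of 100 kb; also the 3 longest combined regions, the fullest and emptiest bin of 1 Mb and the 3 highest-ranked regions found in 3 lists. These choices were made with earlier results of these data known. Planned checks of base composition, motifs and genes near peaks, and the use of reference chromosome lengths, were not run, because the reference table is of another build.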

Additional observations from a re-analysis of the deposited data

How the results depend on the processing

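FOS-1 minus EGL-43 differences were recomputed at an FDR below 0.001, for peaks at or above the median score, without peaks over 15 kb, with touching peaks merged, with other limits and without each number. Leaving out the densest FOS-1 stretches was added after the data were seen. Of 109 alternative values 102 kept their direction and side of the threshold, but no p could pass 0.05, so this says little about stability. Merging touching peaks and the replicate block could not change a difference. No peaks of 1 list touched, and the block keeps the same means. The difference in peak number, -51.7, became 2.33 at an FDR below 0.001 and 18.7 at or above the median score. The X ratio difference became 0.00962 at an FDR below 0.001 and 0.000333 without the dense stretches, and ran from -0.0938 to 0.0160 without 1 number. The central share difference ran from -5.35 to 1.31 percentage points without 1 number. The rank difference of X peaks in FOS-1 replicate 2 moved to 0 at an FDR below 0.001. In these cases the cause was not tested. The covered length difference of 451 kb was 235 kb without the dense stretches. Without 1 number in both factors it ran from 181 kb without number 3 to 743 kb without number 2. With the replicate block, exact sign-flip p-values ran from 0.25 to 0.75, with the peak number difference at -51.7 (p = 0.25) and the touched share difference at -14.6 points (p = 0.25); 0.25 is the smallest 3 pairs can give, so no call changed. Depth is unknown, so weak peaks missed by a shallow library cannot be told apart from absent ones.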
